A study of Mus musculus with 4 samples.

Results

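Type 2 conventional dendritic cells were selected from the immune infiltrate of CT2a gliomas, a mouse brain tumor line grown in syngeneic mice, by the UMIs (unique molecular identifiers, 1 per captured RNA molecule) of a few genes. A barcode was chosen by having at least 500 detected genes, under 10% mitochondrial UMIs and at least 5 UMIs of Cd209a, Mgl2 and Ccl17 together. It also had fewer than 3 UMIs of Ccr7 and Fscn1, no UMI of Xcr1 or Clec9a, fewer than 30 UMIs of C1qa, C1qb and C1qc, and no UMI of Cd3e, Cd79a or Ncr1. Of 13960 deposited barcodes, 281 met this rule. These were 190 of 6689 barcodes of the WT channel and 91 of 7271 of the CaMKK2 KO channel. Of these, 16 carried the hashtags of several mice and 1 carried none, which left 264 cells, 179 WT and 85 CaMKK2 KO, out of 11705 single-hashtag barcodes that passed the same filters on genes and mitochondrial UMIs.

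Live CD45+ cells were sorted from tumor-bearing hemispheres 14 days after implantation in 4 WT and 4 CaMKK2 KO mice, both of the C57Bl/6 strain background, and profiled with 10X 3′ v3.1 chemistry. The knockout was in the germline of the host, whereas the implanted tumor line was the same in both genotypes, and the methods describe the transgenic lines as derived on the C57BL/6 background or backcrossed to it. No treatment was given. The age of these animals was not given in the labels, whereas the study's reporting summary gives an age range for its mice and describes them as female. The 4 mice of a genotype were marked with hashtag antibodies and pooled on 1 channel each, so genotype and channel cannot be told apart. The 2 matrices shared 42 barcode names, none of which belonged to a type 2 cell.

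Conventional dendritic cells take up antigen in tissue and present it to T cells. Type 1 cells are known for cross-presentation to CD8+ T cells. Type 2 cells depend on Irf4 and Klf4, carry C-type lectins such as Cd209a, Mgl2 and Clec10a, and present antigen mainly on MHC class II to CD4+ T cells. Both types mature after antigen uptake, gain the lymph node homing receptor Ccr7 and lose their tissue markers. CaMKK2 is a calcium and calmodulin dependent kinase that phosphorylates AMPK and the calmodulin kinases CaMKI and CaMKIV.

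The type 2 cells held 17654.5 UMIs and 3747.5 genes per cell in the median, with 17935 UMIs in WT and 17138 in CaMKK2 KO cells. WT mice 1 to 4 contributed 24, 41, 55 and 59 cells, and CaMKK2 KO mice 1 to 4 contributed 26, 24, 28 and 7. Summed per mouse, these gave 396640, 800787, 1069539 and 1114331 UMIs in WT and 508660, 454623, 594409 and 92176 UMIs in CaMKK2 KO mice 1 to 4. CaMKK2 KO mouse 4 was therefore the shallowest, and values from its 7 cells are the least precise. Levels below are CPM, the UMIs of a gene relative to all UMIs of the cells summed within a mouse. They are given per mouse or as mean ± SD over mice, unless sums over mice are named.

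Starting from 470 cells with at least 5 UMIs of the 3 selecting genes, 49 were set aside for Ccr7 and Fscn1, 61 for Xcr1 and Clec9a, 96 for C1q and 29 for Cd3e, Cd79a or Ncr1, with some cells counted under several of these. The median sum of Cd209a, Mgl2 and Ccl17 was 17 UMIs, and 197 cells had at least 10. Just inside the threshold, 15 cells had a sum of 5, and just outside it 30 cells had a sum of 4 and met the rest of the rule. C1q UMIs were 0 in 71 cells, 1 to 4 in 166 and 5 or more in 27. These values chose the members and describe the gate only.

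In cells that should lack the 3 genes, the sum of 5 was reached by 0.183% of 1095 NK cells, 0.579% of 1554 T cells and none of 365 B cells, at median depths of 9273, 9314 and 4318 UMIs. It was reached by 2.39% of 3768 macrophages with at least 30 C1q UMIs, at a median of 16152.5 UMIs, close to the depth of the type 2 cells. Among 127 type 1 cells (at least 3 UMIs of Xcr1 and Clec9a) and 170 mature cells (at least 5 UMIs of Ccr7 and Fscn1, with both detected), 17.3% and 16.5% reached it.

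The 3 remaining type 2 markers did not enter the rule. Clec10a, a galactose-binding lectin, stood at 285, 465, 284 and 290 CPM in WT mice and 320, 319, 63.9 and 488 CPM in CaMKK2 KO mice. Across the 8 mice its level was 314 ± 130 CPM in type 2 cells against 50.3 ± 60.2 in type 1 cells, 3.16 ± 4.68 in mature cells and 9.88 ± 3.96 in macrophages. With every cell thinned to 5000 UMIs, 51.5% of type 2 cells had a Clec10a UMI (70.8% unthinned), compared with 15.9% of type 1, 1.31% of mature, 4.49% of macrophages and 0.451% of NK cells.

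Ffar2, a receptor for short-chain fatty acids, was at 113 ± 55.8 CPM in type 2 cells and at 6.52 ± 9.33 in type 1, 5.85 ± 6.34 in mature cells and 1.477 ± 0.841 in macrophages. Plet1, a surface protein of epithelial and some dendritic cells, was at 236 ± 118 CPM in type 2 cells and at 263 ± 185 in type 1 cells, so it did not separate these types, while mature cells had 7.73 ± 19.7 and macrophages 1.90 ± 1.90 CPM. Clec10a and Ffar2 thus followed the label on average in this comparison and Plet1 did not. None of the 3 was higher in type 2 than in type 1 cells in all 8 mice, and 1 of the 3 was higher than in mature cells in all 8. Ffar2 had 0 CPM in type 2 cells of CaMKK2 KO mouse 4.

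The conventional dendritic cell genes Flt3, a growth factor receptor, and Zbtb46, a transcription factor, were at 88.3 ± 27.8 and 40.02 ± 10.8 CPM in type 2 cells, against 2.07 ± 1.56 and 0.583 ± 0.362 CPM in macrophages. Irf4, the transcription factor named above, was at 36.5 ± 15.0 CPM in type 2 cells, 1.32 ± 1.87 in type 1 cells and 1.75 ± 0.665 in macrophages. It was also read in mature cells at 71.9 ± 77.4 CPM, in B cells at 57.8 ± 26.5 and in T cells at 33.1 ± 12.6, so it set type 2 cells apart from type 1 cells and macrophages but not from these. Klf4 was at 342 ± 53.4 CPM in type 2 cells and at 111 ± 29.4 in type 1 cells. Some genes that define other cells, Pax5 of B cells, Retnlg and Mmp8 of neutrophils and Sall1 of microglia, had no UMI, whereas other members of such lists were read in type 2 cells, as given below with their levels.

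**Figure D1:**
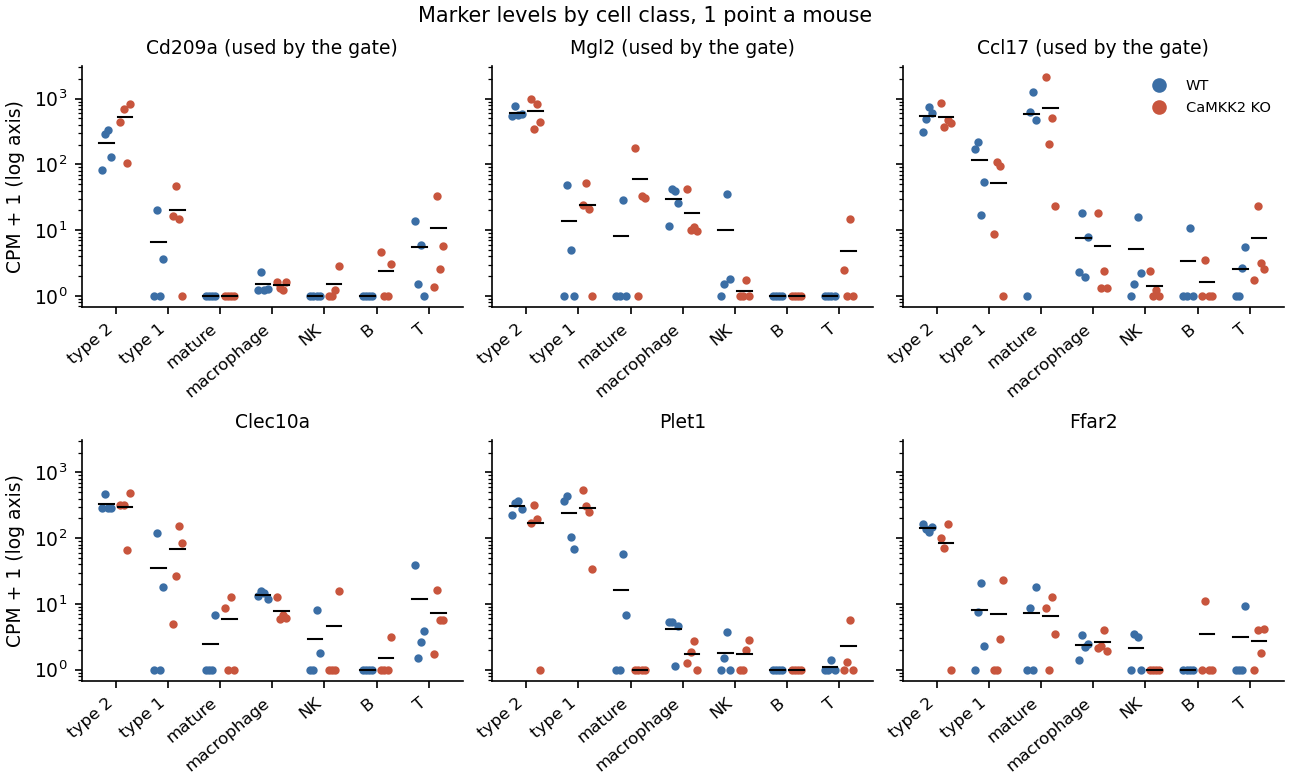
Levels of 6 type 2 markers in type 2, type 1 and mature dendritic cells, macrophages, NK, B and T cells. Each point is 1 mouse, the short line is the mean of a genotype, and the log axis shows CPM with 1 added. The 3 selecting genes are high in type 2 cells by choice. On average, Clec10a (314 CPM) and Ffar2 (113 CPM) were lower in the other classes and Plet1 was at a like level in type 1 cells (263 CPM).

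Marker lists of other cells were summed per mouse over the members outside the gate. Monocyte and macrophage genes, of which Plac8 was the most abundant at 1529 CPM, summed to 1603, 4482, 4202 and 3529 CPM in WT and 5424, 9881, 3015 and 7236 CPM in CaMKK2 KO mice. The NK list summed to 223 to 451 CPM, mostly through Klrk1 at 285 CPM, and the T cell list to 12.6 to 141 CPM, with the highest value in CaMKK2 KO mouse 4. The B cell list summed to 29.5 to 130, the neutrophil list to 0 to 16.8, the microglia list to 13.8 to 77.0 and the neural and red cell list to 30.8 to 80.8 CPM. Non-classical monocyte genes summed to 370 to 705 CPM (507 ± 59.2 in WT and 509 ± 155 in CaMKK2 KO mice), led by Nr4a1 at 270 CPM, a gene that many stimulated cells express. Plasmacytoid dendritic cell genes summed to 648 to 1953 CPM, led by Bst2 at 512 CPM, which is also an interferon-stimulated gene. The part of these other cells in the results below was not tested.

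The gates set the contrast of type 2 cells with the other dendritic cells, so it is described without a test. Levels in this contrast are of UMIs summed over all 8 mice. Mice with more cells therefore weigh more, and these levels can differ from the means over mice above. Of 6707 genes compared with type 1 cells, 56 (0.835%) were at least 2-fold higher and 42 (0.626%) at least 2-fold lower in type 2 cells in all 8 mice. Ccr1, a receptor for inflammatory chemokines, was at 299 CPM in type 2 cells and 9.26 in type 1 cells. Il1r2, the decoy receptor of interleukin 1, was at 458 against 29.2 CPM, and Cd14, the co-receptor for bacterial lipopolysaccharide, at 104 against 4.46 CPM. Itgam, the integrin CD11b that is used to sort type 2 cells, was at 148 against 9.61 CPM. S100a4, a calcium-binding protein, was at 1703 against 134 CPM. Further genes on this side were the cell cycle inhibitor Cdkn1a (317 against 33.3 CPM), the transglutaminase Tgm2 (134 against 5.83 CPM) and the transcription factor Creb5 (148 against 3.43 CPM).

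On the other side, genes of type 1 cells were low in type 2 cells. The transcription factor Irf8, which type 1 cells need to develop, was at 171 against 2316 CPM, and the double-stranded RNA receptor Tlr3 at 13.9 against 211 CPM. The lysosomal amidase Naaa was at 172 against 1331 CPM, the small GTPase Rab7b at 5.37 against 206 CPM and the chemokine receptor Cxcr3 at 0.795 against 57.3 CPM. Each of these ratios pointed the same way in 8 of 8 mice. The plasmacytoid genes Siglech (6.96 against 177 CPM) and Ly6d (0.398 against 157 CPM) were higher in the summed type 1 gate, and Siglech was lower in type 2 cells in 7 of 8 mice and Ly6d in 4 of 8.

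Against mature cells, 250 of 6281 genes (3.98%) were at least 2-fold higher and 236 (3.76%) at least 2-fold lower in all 8 mice. WT mouse 1 gave only 2 mature cells. The genes higher in type 2 cells included Clec10a at 299 against 2.81 CPM, the complement factor Cfp (properdin) at 614 against 27.5 CPM, the leukotriene pathway protein Alox5ap at 665 against 26.9 CPM and the immediate early transcription factor Egr1 at 431 against 11.2 CPM. Ifitm6 was at 376 against 5.05 CPM and Qpct, a glutaminyl cyclase, at 318 against 4.49 CPM. Chemokines of mature cells were lower, with Ccl22 at 45.1 against 1662 CPM and Ccl5 at 221 against 7638 CPM, as were the calcium channel subunit Cacnb3 (0.398 against 852 CPM), the fatty acid carrier Fabp5 (30.0 against 1829 CPM) and the cytokine signaling inhibitor Socs2 (12.3 against 811 CPM).

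By gene list, members were counted as higher or lower by any size in all 8 mice. Over all genes this held for 16.7% higher and 12.1% lower than in mature cells, and for 7.19% higher and 7.02% lower than in type 1 cells. MHC class II genes were higher in type 2 than in mature cells in all 8 mice for 11 of 12 members, with a median log2 ratio of 1.80 where all genes had 0.03. Against type 1 cells this held for 5 of 11, with a median of 0.51 where all genes had -0.07. Immediate early genes were higher in all 8 mice for 12 of 20 against mature and 9 of 20 against type 1 cells. Of the transcription factors and surface molecules known in type 2 cells, 8 of 13 were higher in all mice against type 1 cells (median 1.91) and 6 of 14 against mature cells (median 1.60). None of 13 and none of 14 were lower in all mice. The gates chose the cells of this contrast, so nothing is read from these counts.

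The 3 selecting genes were shared unevenly among the 264 cells. Cd209a was detected in 118 cells, Mgl2 in 183 and Ccl17 in 151, all 3 in 28, and Cd209a together with Mgl2 in 54. Cells with more Cd209a than Mgl2 UMIs (Cd209a-led, 81 cells) and cells with more Mgl2 than Cd209a UMIs (Mgl2-led, 164 cells) were therefore set side by side. This division was made after the values were seen, and it is described without a test. Levels that set these kinds of cells side by side are of UMIs summed over mice. The remaining 19 cells had no lead, and 17 of them carried Ccl17 alone. Cd209a-led cells were shallower, with a median of 14945 UMIs against 19866.5 in Mgl2-led cells.

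Cd209a-led cells made up 8.33%, 26.8%, 41.8% and 13.6% of type 2 cells in WT mice 1 to 4 and 34.6%, 75.0%, 14.3% and 85.7% in CaMKK2 KO mice 1 to 4. The mean was 22.6 ± 15.0% in WT and 52.4 ± 33.6% in CaMKK2 KO mice (n = 4 each), and the ranges overlapped, since CaMKK2 KO mice 1 and 3 lay below WT mouse 3. CaMKK2 KO mouse 4 had no Mgl2-led cell among its 7 and CaMKK2 KO mouse 2 had 5, so 7 mice allowed a comparison within the mouse. WT mouse 1 had only 2 Cd209a-led cells and CaMKK2 KO mouse 3 only 4, so their values in that comparison are imprecise.

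Cd209a-led cells carried genes shared with monocytes. Of 5096 genes, 203 (3.98%) were higher in Cd209a-led cells in all 7 mice and 311 (6.1%) were higher in Mgl2-led cells in all 7. The chemokine Ccl9 was at 442 CPM in Cd209a-led and 19.8 in Mgl2-led cells. Ccr2, the chemokine receptor that recruits monocytes, was at 529 against 66.1 CPM. Lysozyme (Lyz2) was at 3096 against 349 CPM and the cytokine Osm at 143 against 18.9 CPM. Each of these 4 genes was higher in Cd209a-led cells in 7 of 7 mice. The monocyte surface gene Ly6c2, at 432 against 58.5 CPM, was higher in 5 of 7 mice, and Clec10a, at 608 against 185 CPM, in 6 of 7.

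Mgl2-led cells carried another set. The integrin Itgae (CD103) was at 229 CPM in Mgl2-led and 32.7 in Cd209a-led cells, and the adhesion protein Epcam at 172 against 31.1 CPM. Plet1 was at 367 against 52.6 CPM and Ffar2 at 166 against 32.7 CPM, so the markers outside the rule did not go together, as both were higher in Mgl2-led cells and Clec10a was higher in Cd209a-led cells. The decoy receptor Il1r2 was at 587 against 146 CPM and leukotriene C4 synthase (Ltc4s) at 112 against 9.57 CPM. These 6 genes were higher in Mgl2-led cells in 7 of 7 mice. Flt3 (110.8 against 79.5 CPM in Cd209a-led and Mgl2-led cells) and Zbtb46 (36.7 against 36.4 CPM) were present in both.

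**Figure D2:**
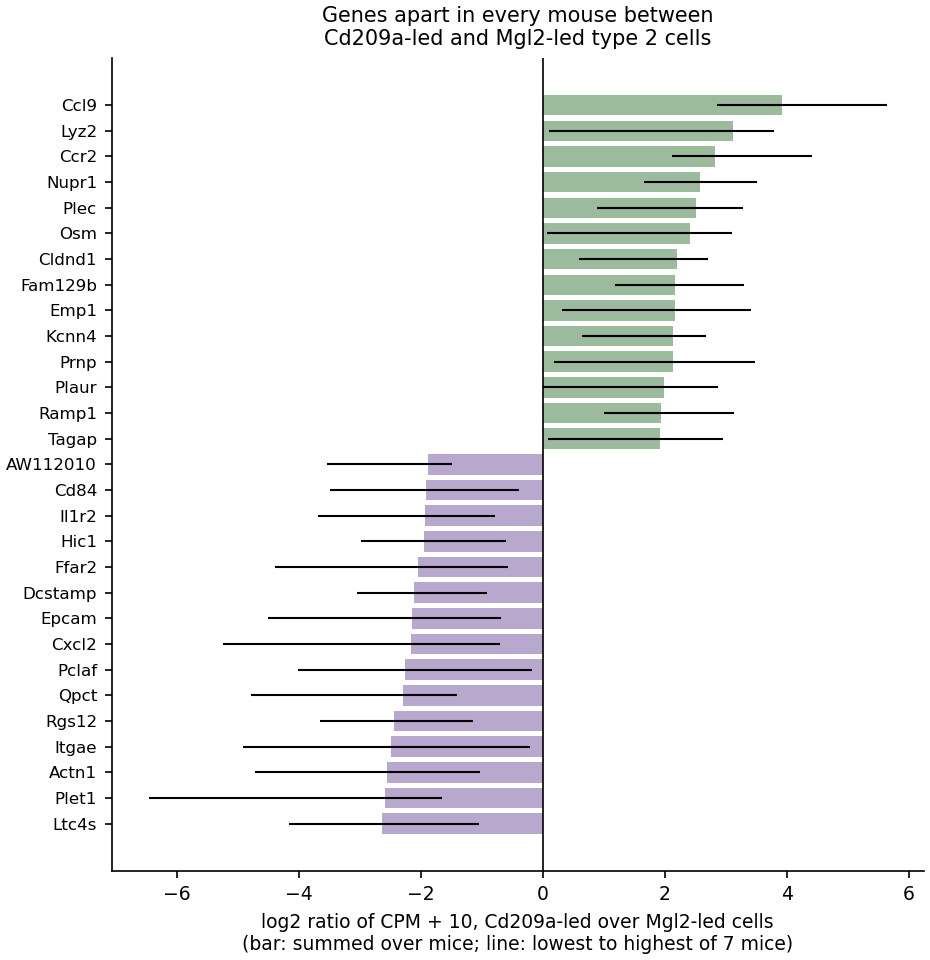
Log2 ratio of the level in Cd209a-led cells to that in Mgl2-led cells for genes from among those with the highest ratio in each direction and on 1 side in every mouse, with 10 CPM added to each level. Bars give the ratio of summed levels and lines run from the lowest to the highest of 7 mice. Ccl9, Ccr2 and Lyz2 were on the Cd209a side in every mouse, and Plet1, Itgae, Ffar2 and Ltc4s on the Mgl2 side. The genes were picked by these ratios.

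All 38 interferon-stimulated genes had a positive log2 ratio of Cd209a-led to Mgl2-led cells over the summed cells, with a median of 1.27 where all genes had -0.03, but only 2 of the 38 were higher in all 7 mice. Over all genes 3.98% were higher in Cd209a-led and 6.1% in Mgl2-led cells in all 7 mice, so 2 of 38 is near that share, as is 1 of 13 below. The sums mix the genotypes unequally, since 37 of 81 Cd209a-led and 43 of 164 Mgl2-led cells came from CaMKK2 KO mice. Within WT the sums of 3 of the 38 pointed the other way, with Cxcl9 at 134 CPM in Cd209a-led and 303 in Mgl2-led cells, Ifi44 at 23.1 and 28.3 and Iigp1 at 27.5 and 40.2, and Cxcl9 and Iigp1 were higher in Cd209a-led cells in 2 of 7 mice. Isg15, a ubiquitin-like interferon-stimulated protein, was at 779 against 249 CPM in the sums and higher in Cd209a-led cells in 5 of 7 mice. Monocyte and macrophage genes leaned the same way (10 of 14, median 0.92, 3 in all mice), as did cholesterol synthesis genes (12 of 13, median 0.78, 1 in all mice). Proliferation genes leaned toward Mgl2-led cells (12 of 12, median -1.52, 3 in all mice), with the topoisomerase Top2a at 63.5 against 7.17 CPM (higher in Mgl2-led cells in 6 of 7 mice). So did glycolysis and hypoxia genes (16 of 17, median -0.55, 1 in all mice) and MHC class II genes (10 of 11, median -0.43, 2 in all mice), where 2706 of all 5096 genes had a negative ratio, with H2-Ab1 at 16066 CPM in Mgl2-led and 11242 CPM in Cd209a-led cells.

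The share of type 2 cells among immune cells was lower in each CaMKK2 KO mouse than in each WT mouse, by a difference that did not pass the threshold once adjusted. They made up 2.16%, 2.83%, 3.74% and 3.83% of single-hashtag immune cells in WT mice 1 to 4 and 1.85%, 1.33%, 1.66% and 0.565% in CaMKK2 KO mice 1 to 4. The means were 3.14 ± 0.796% and 1.35 ± 0.565%, a difference of -1.79 percentage points with a two-sided exact permutation p of 0.0286, the smallest that 4 mice against 4 can give. Adjusted over the 2 shares tested it was 0.0571, above the threshold of 0.05. When macrophages were left out of the denominator, the shares were 5.48 ± 0.864% and 1.85 ± 0.887%, with an exact permutation p of 0.0286.

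Some settings gave a higher unadjusted p. With at least 10 UMIs required of the 3 selecting genes the exact permutation p was 0.0857, and with all cells thinned to 5000 UMIs before gating the shares were 1.96% and 1.08% with an exact permutation p of 0.171. Sorted cells of the mice were combined in equal parts, so shares give no number of cells per tumor.

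Among gated dendritic cells, type 2 cells were 64.9%, 47.7%, 61.1% and 53.6% in WT mice and 53.1%, 36.9%, 37.8% and 14.0% in CaMKK2 KO mice. The groups overlapped through WT mouse 2 and CaMKK2 KO mouse 1. The means of 56.8 ± 7.68% and 35.5 ± 16.1% differed by -21.4 percentage points (two-sided exact permutation p = 0.0571, also 0.0571 adjusted over the 2 shares), which did not pass the threshold. Of gated dendritic cells, 19.4 ± 10.8% were mature in WT and 43.7 ± 21.7% in CaMKK2 KO animals (exact permutation p = 0.0857), and type 1 cells were 1.32 ± 0.610% and 0.821 ± 0.413% of immune cells (exact permutation p = 0.229).

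**Figure D3:**
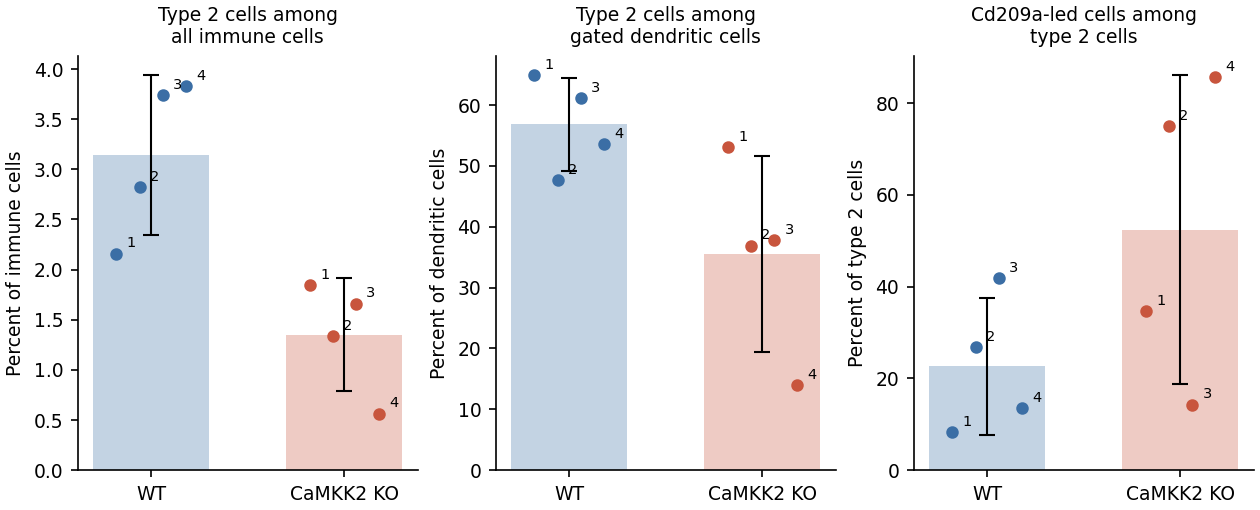
Type 2 cells as a percent of immune cells and of gated dendritic cells, and Cd209a-led cells as a percent of type 2 cells, in each mouse. Bars are the mean of 4 mice, error bars the SD, and numbers mark the mouse. All 4 CaMKK2 KO mice lie below the WT mice in the share of immune cells (at most 1.85% against at least 2.16%), and the groups overlap in the other panels.

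Camkk2 itself was read at a low level in type 2 cells. It was at 5.04, 27.5, 32.7 and 34.1 CPM in WT and 23.6, 22.0, 23.6 and 10.8 CPM in CaMKK2 KO mice, from 134 UMIs in all, and the groups overlapped. The log2 fold change of CaMKK2 KO to WT was -0.29 (SE 0.40, edgeR quasi-likelihood test with Benjamini-Hochberg adjusted p = 0.866), and the test did not pass. Summed over mice, Camkk2 was at 69.4 CPM in WT and 33.8 in CaMKK2 KO cells of the Cd209a-led kind described above, and at 16.4 and 15.1 CPM in Mgl2-led cells, values given without a test. In macrophages Camkk2 went from 28.6 ± 1.477 to 13.4 CPM (log2 -1.12, SE 0.15, adjusted p = 0.00367 in edgeR). Whether the counted 3′ tags lie in the deleted part of Camkk2 (chromosome 5, 122731170 to 122779409, minus strand, mm10) was not given in the sources used here, so the transcript is a limited check of the labels.

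WT and CaMKK2 KO type 2 cells were compared over 5291 genes with at least 100 UMIs that were not in the gate. With edgeR and Benjamini-Hochberg adjustment, 13 genes rose (0.246%) and 11 fell (0.208%) in CaMKK2 KO cells at an adjusted p under 0.05, and 528 had an unadjusted p under 0.05. All CaMKK2 KO mice lay above all WT mice for 173 genes (3.27%) and below them for 162 (3.06%). The median log2 fold change over all genes was 0.03. Called genes other than gene models (names starting with Gm) are described below, and the mice of the genotypes did not overlap in any of these. Gm34084, Gm47283 and Gm8797 are counted only.

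The 2 named genes with the lowest adjusted p among those that fell were a protease inhibitor and an apolipoprotein. Spint1, which inhibits serine proteases at the cell surface (chromosome 2, 119237362 to 119249527), was at 250, 240, 259 and 351 CPM in WT and 5.90, 10.998, 3.36 and 0 CPM in CaMKK2 KO mice, with a log2 fold change of -5.46 (SE 0.34, edgeR adjusted p = 4.91e-06). Apoe, the lipid carrier (chromosome 7, 19696109 to 19699188), was at 300, 753, 400 and 561 CPM in WT and 17.7, 13.2, 8.41 and 32.5 CPM in CaMKK2 KO mice (log2 -5.12, SE 0.40, edgeR adjusted p = 3.05e-05). For both genes every WT mouse was far above every CaMKK2 KO mouse. Spint1 was also called lower with edgeR in macrophages (log2 -10.76) and in type 1 and mature cells together (-6.18).

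Apoe, which macrophages are known to make in quantity, was also read in lymphocytes, which are not. In WT mice it was at 28450 CPM in macrophages, 286 in NK cells, 336 in T cells, 363 in mature and 211 in type 1 cells, and in CaMKK2 KO mice at 2260, 20.9, 31.7, 19.9 and 15.5 CPM in the same order. After thinning to 5000 UMIs, 68.7% of WT type 2 cells had an Apoe UMI, compared with 72.5% of WT NK cells and 78.2% of WT T cells. The log2 fold change was -5.12 in type 2 cells, -3.65 in macrophages, -3.81 in type 1 and mature cells together, -3.79 in NK cells and -3.43 in T cells, and in B cells it was -1.54 and did not pass the test (edgeR adjusted p = 0.566). The mean WT level was 504 CPM in type 2 cells, above the 286 and 336 CPM of NK and T cells, whereas the share of cells with a UMI after thinning was not above theirs. The part of free Apoe RNA in the type 2 value was not tested.

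Among the other genes that fell, Eps8, which caps and bundles actin, was at 159 ± 23.7 CPM in WT and 32.4 ± 20.4 in CaMKK2 KO mice (log2 -2.07, SE 0.30, edgeR adjusted p = 0.00477). AA467197, a small gene known as an induced transcript of myeloid cells, was at 716 ± 62.6 and 270 ± 67.9 CPM (log2 -1.38, adjusted p = 0.00319). Ifi213, a HIN-200 family gene, was at 53.0 ± 20.7 and 3.26 ± 5.16 CPM (log2 -5.28, adjusted p = 0.00258), and was also called lower in macrophages, NK and T cells. On the log2 scale Stard9 fell by 2.699, Ero1lb fell by 1.98 and the translation factor gene Eif3j1 fell by 2.03. Eif3j1 shares 41.0% of its 31-base stretches with its near copy Eif3j2, for which WT type 2 cells had 3 UMIs and CaMKK2 KO type 2 cells had 62, so the counts of the pair are uncertain. Eif3j2 was looked up after the values were seen.

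Genes that rose included a Wnt carrier and interferon-associated genes. Wls, which brings Wnt proteins to the cell surface (chromosome 3, 159839672 to 159938664), was at 17.6, 21.2, 21.5 and 23.3 CPM in WT and 218, 224, 459 and 163 CPM in CaMKK2 KO mice (log2 3.69, SE 0.32, edgeR adjusted p = 8.15e-05). Ifi44 was at 24.6 ± 11.9 CPM in WT and 352, 400, 124 and 716 CPM in CaMKK2 KO mice (log2 3.82, SE 0.49, adjusted p = 0.00238). Ifi44l, next to it on chromosome 3, had no UMI in the WT group against 248 in the CaMKK2 KO group, and for Ifi202b of the HIN-200 family these were none and 396. Set against 3 counts over the WT group, Ifi44l was at least 169-fold and Ifi202b at least 271-fold higher. Ifi44, Ifi44l and Ifi202b were also called higher with edgeR in macrophages, in type 1 and mature cells together and in NK cells. In all 3 genes CaMKK2 KO mouse 3 was the lowest of the CaMKK2 KO mice and mouse 4 the highest. Their shares of Cd209a-led cells were 14.3% and 85.7%. In Mgl2-led cells alone, which mouse 4 lacked, Ifi44 was at 279, 170 and 124 CPM in CaMKK2 KO mice 1 to 3. There Ifi44l was at 134, 128 and 76.2 CPM and Ifi202b at 172, 134 and 63.1 CPM, so mouse 3 was again the lowest. The cause of this order was not tested.

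Of the remaining genes that rose, Gatm, the first enzyme of creatine synthesis (chromosome 2, 122594467 to 122611303), was at 88.2, 91.2, 79.5 and 95.1 CPM in WT and 456, 308, 247 and 250 CPM in CaMKK2 KO mice (log2 1.85, SE 0.22, edgeR adjusted p = 0.00169). S100a10, the partner of annexin A2, was at 335 ± 97.1 and 1066 ± 231 CPM (log2 1.66, adjusted p = 0.00460), and the membrane protein gene Emp1 at 84.8 ± 13.4 and 266 ± 65.4 CPM (log2 1.67, adjusted p = 0.00238). Ncf4, the p40 subunit of the phagocyte NADPH oxidase, was at 131 ± 21.4 and 385 ± 144 CPM (adjusted p = 0.0129). Gmfg, a regulator of actin branching, was at 185 and 343 CPM (log2 0.90, adjusted p = 0.0348). Heatr5a, Oser1 and Chp1 rose by 1.39, 1.14 and 1.08 on the log2 scale. Oser1 shares 46.9% of its 31-base stretches with Gm12226 and is uncertain for that reason. S100a10 and Emp1 were also higher in Cd209a-led than in Mgl2-led cells in 7 of 7 mice. Ncf4 went the other way in 7 of 7 mice, although its summed level was 192 CPM in both kinds of cells. Gmfg was higher in Cd209a-led cells in 4 of 7 mice.

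Called genes lay close together in places. Spint1, Chp1, Stard9, Eif3j1, Gatm and AA467197 were all within 3.4 Mb of chromosome 2 (119237362 to 122641191), where 20 genes were tested, and some of them rose while others fell. Ifi44, Ifi44l and Wls lay within 8.21 Mb of chromosome 3 with 11 tested, Emp1 and Eps8 within 2.29 Mb of chromosome 6 with 8 tested, and Ifi213 and Ifi202b within 0.42 Mb of chromosome 1 with 8 tested. Positions are those of GENCODE M21 on mm10. The backcross history of the CaMKK2 KO line was not given in detail, and its part in these values was not tested.

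**Figure D4:**
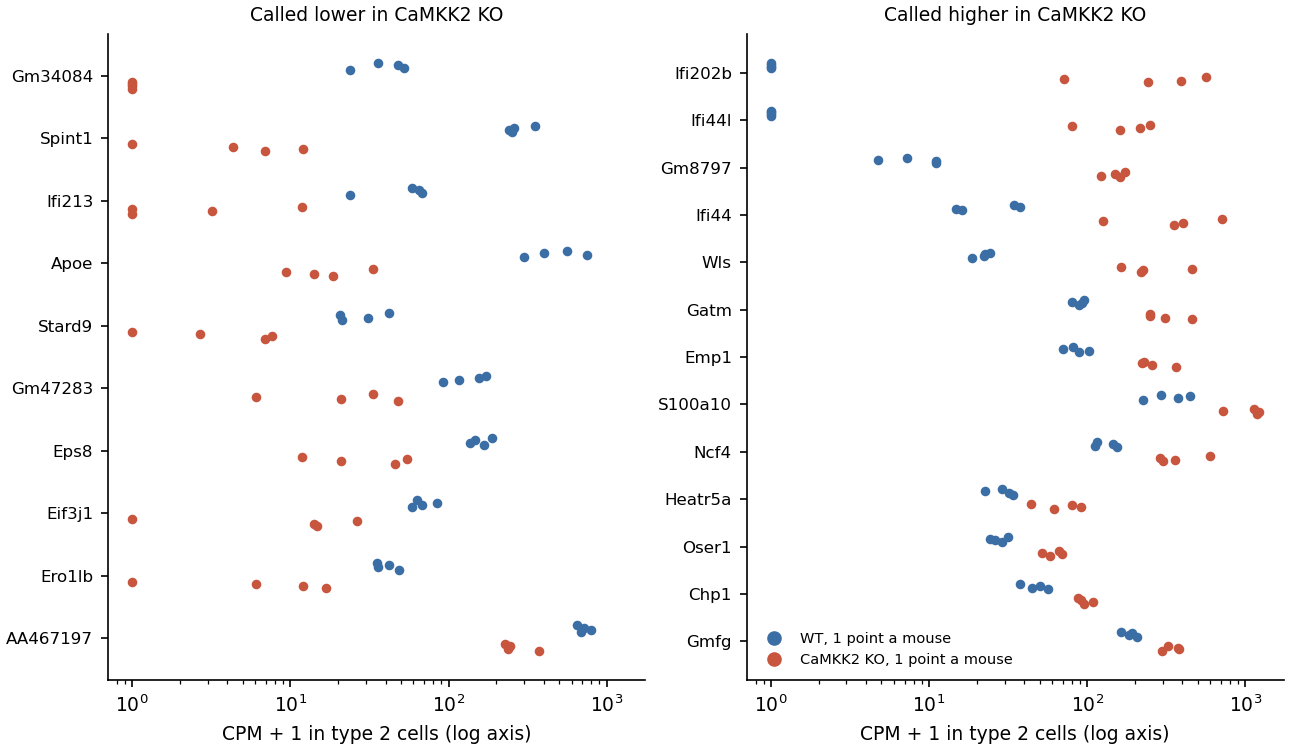
Levels of most of the called genes in type 2 cells of each mouse, on a log axis of CPM with 1 added. Each point is 1 mouse, with genes called lower in CaMKK2 KO on the left and higher on the right. Spint1 and Apoe were at 240 CPM or more in every WT mouse and at 32.5 CPM or less in every CaMKK2 KO mouse, and Wls, Gatm and S100a10 show the opposite order.

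Gene lists gave few calls, and each is set against 0.246% rising and 0.208% falling among all genes tested. Of 38 interferon-stimulated genes 1 rose (Ifi44), 1 fell (Ifi213) and the rest did not pass the test. Their median log2 fold change was 0.87, with 34 positive. The chemokine Cxcl9 was at 2.52, 180, 582 and 432 CPM in WT and 1469, 1769, 133 and 6661 CPM in CaMKK2 KO mice, and these overlapped (log2 3.00, SE 1.02, edgeR adjusted p = 0.347). Isg15 was at 93.3, 262, 488 and 405 CPM in WT and 570, 682, 143 and 1671 CPM in CaMKK2 KO mice (log2 1.20, adjusted p = 0.532). CaMKK2 KO mouse 3 was again the low one. The list's median was 0.50 without CaMKK2 KO mouse 4, 0.35 in Cd209a-led cells alone, 0.42 in Mgl2-led cells alone and 0.02 with the share of Cd209a-led cells as a covariate. Medians of the fits on 1 kind of cell, here and below, cover only list members with enough UMIs there. Those fits tested 1764 genes in Cd209a-led and 4165 in Mgl2-led cells, against 5291 in all type 2 cells. The Mgl2-led fit also lacks CaMKK2 KO mouse 4, so these medians are not a comparison on the same genes and mice.

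MHC class I and peptide loading genes gave no call among 19, with a median of 0.55 and 17 positive. Their median was 0.45 in Cd209a-led cells alone, 0.53 in Mgl2-led cells alone and 0.32 with the Cd209a-led share as a covariate. For H2-K1, H2-D1, B2m, Psmb8, Psmb9 and Psmb10, all CaMKK2 KO mice lay above all WT mice, which makes 6 of 19 where all genes had 3.27%. B2m, the light chain of MHC class I, was at 2756 ± 513 CPM in WT and 4026 ± 479 in CaMKK2 KO mice (log2 0.54, edgeR adjusted p = 0.229). MHC class II genes gave no call among 11, with a median of 0.02. Cd74, the invariant chain, was at 30885 ± 3668 and 30862 ± 3569 CPM. Ciita, the class II transactivator, did not overlap between genotypes, at 348 ± 56.3 and 560 ± 102 CPM, and did not pass the test in all type 2 cells (log2 0.70, adjusted p = 0.182).

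Monocyte and macrophage genes had 1 call among 14, the fall of Apoe, with a median of 0.94 and 13 positive. Their median was 0.18 in Cd209a-led cells alone, 0.79 in Mgl2-led cells alone and 0.37 with the Cd209a-led share as a covariate. Ccr2 was at 70.6, 126, 128 and 125 CPM in WT and 366, 477, 141 and 434 CPM in CaMKK2 KO mice without overlap (log2 1.60, SE 0.33, edgeR adjusted p = 0.0809). Immediate early genes gave no call among 20, with a median of -0.33 and 16 negative. Their median was -0.02 in Cd209a-led cells alone, -0.72 in Mgl2-led cells alone and -0.53 with the Cd209a-led share as a covariate. Egr2, Nr4a1, Btg2 and Zfp36 were lower in all CaMKK2 KO than in all WT mice. That makes 4 of 20 where all genes had 3.06%. Nr4a1 was at 344 ± 36.1 and 196 ± 44.7 CPM (log2 -0.86, adjusted p = 0.0884). Chemokines gave none among 11 (median 0.86, and 0.29 in Cd209a-led cells alone, -0.20 in Mgl2-led cells alone and -0.40 with the Cd209a-led share as a covariate).

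No member was called among 14 cholesterol synthesis genes (median -0.42, 11 negative), 11 heat shock genes (median -0.23), 18 lysosomal genes (median 0.06), 17 glycolysis and hypoxia genes (median -0.01) and 13 proliferation genes (median 0.01). The same held for 13 co-stimulatory genes (median 0.00), 6 cytokines (median -0.11), 10 trafficking receptors (median 0.28) and 7 pattern recognition receptors (median 0.05). Of the calmodulin, calmodulin kinase and AMPK genes none of 11 was called (median 0.07). The genes known in type 2 cells gave none of 13 (median 0.01) and conventional dendritic cell genes none of 11 (median -0.13). The 3 markers outside the gate gave none (median -0.52, and 0.04 in Mgl2-led cells alone). Clec10a was at log2 -0.24 (edgeR adjusted p = 0.903), Plet1 at -0.69 and Ffar2 at -0.52. Type 1 (5 genes, median -0.36), mature (5, median 0.28), plasmacytoid (4, median 0.29) and non-classical monocyte genes (4, median 0.56) gave none either. Some of these medians rested on single mice. With 1 mouse left out, the mature median ran from 0.03 to 0.49 and that of trafficking receptors from 0.04 to 0.37. The heat shock median ran from -0.38 to -0.05, the cytokine median from -0.37 to 0.17 and the conventional dendritic cell median from -0.36 to -0.02. The plasmacytoid median ran from 0.12 to 0.46 and the type 1 median from -0.67 to -0.18. The non-classical monocyte median was -0.42 without CaMKK2 KO mouse 3 and between -0.09 and 0.00 without CaMKK2 KO mouse 2 or WT mouse 1, 2 or 4. The part that a change of genes had in this was not tested. Without WT mouse 3 the cholesterol median was -0.08 and the proliferation median 0.54. Of 8 disease-associated microglia genes, Apoe was the 1 that fell (median 0.00). The NK, B cell and neural and red cell lists had 1 tested gene each, Klrk1 (log2 -0.27), Ighm (-0.01) and Mbp (-0.67), and none was called. The T cell, neutrophil and microglia lists had none with enough UMIs.

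The 2 kinds of type 2 cells were also fitted apart, a step added after the values were seen. In Cd209a-led cells 4 of 1764 genes rose (0.227%) and 2 fell (0.113%), and of the 16 genes called in all type 2 cells that could be tested there, 6 passed. In Mgl2-led cells, which 4 WT and 3 CaMKK2 KO mice had, 18 of 4165 rose (0.432%) and 20 fell (0.48%), and of the 22 genes called in all type 2 cells that could be tested there, 18 remained.

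Some genes were called in Mgl2-led cells and not in all type 2 cells together. Clec10a was at 290, 280, 150 and 258 CPM in WT and 59.1, 109.5 and 39.2 CPM in CaMKK2 KO mice 1 to 3 (log2 -1.97, SE 0.33, edgeR adjusted p = 0.0156), and no mouse overlapped. The immediate early gene Egr1 was at 602 ± 158 and 224 ± 32.5 CPM (log2 -1.43, adjusted p = 0.00784), and interleukin 1 beta (Il1b) at 2692 ± 682 and 1355 ± 104 CPM (log2 -0.99, adjusted p = 0.0354). Nr4a1, Zfp36, Csrnp1, Etv3 and the phosphodiesterase Pde4b fell as well. Ciita rose from 373 ± 69.6 to 661 ± 45.3 CPM (log2 0.82, adjusted p = 0.0476), and Lyz2, Ly6a and the Fc receptor gene Fcgr3 also rose. These genes were chosen after their values were seen, and whether their change differs between Mgl2-led and Cd209a-led cells was not tested.

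Whether the genotypes differed in the same way in type 2 cells and macrophages was tested with an interaction term over 5272 genes. With edgeR and Benjamini-Hochberg adjustment 13 genes differed (0.247%), 4 with the higher fold change in type 2 cells and 9 with the lower. MHC class II genes made up 6 of the 9. H2-Eb1, a class II chain, was at 16546, 13338, 10822 and 13813 CPM in WT and 13435, 9302, 13129 and 10274 CPM in CaMKK2 KO type 2 cells, whereas macrophages had 556, 2294, 2585 and 2441 CPM in WT and 10400, 10160, 8841 and 10739 CPM in CaMKK2 KO mice. The genotypes overlapped in type 2 cells and did not in macrophages. The log2 fold changes were -0.24 and 2.35, and the interaction was -2.76 (SE 0.46, edgeR adjusted p = 0.0288).

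The same direction was called for H2-Ab1 (interaction -2.60, edgeR adjusted p = 0.0328), H2-Aa (-2.48, 0.0454), Ciita (-2.24, 0.0454), and the peptide exchange genes H2-DMb1 (-1.39, 0.0283) and H2-DMa (-1.12, 0.0374). These are 6 of the 11 class II genes tested. The other 5 did not pass, namely Cd74 (-2.05, adjusted p = 0.0651), H2-DMb2 (-1.28, 0.167), H2-Oa (-1.84, 0.244), H2-Ob (-0.78, 0.462) and the protease Ctss (-0.21, 0.749). For the 6 called genes WT mouse 1 had the lowest macrophage values, such as 653 CPM of H2-Aa where the other WT mice had 2536 to 3043. The number of genes called by the interaction was 2 without WT mouse 4, 3 without CaMKK2 KO mouse 1 and 25 without CaMKK2 KO mouse 3, so single mice weigh heavily on this list.

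Wls differed in the other direction, rising from 20.9 ± 2.38 to 266 ± 132 CPM in type 2 cells and from 53.6 ± 3.74 to 115 ± 36.9 CPM in macrophages (interaction 2.57, SE 0.29, edgeR adjusted p = 0.00179), and it was called in each of the 8 fits that left out 1 mouse. The rise of Wls was not particular to type 2 cells. It was called with edgeR in type 1 and mature cells together (log2 5.09) and in NK (4.11), B (2.69) and T cells (2.67), and was smallest in macrophages (1.11). Ifi211 (1.76), Heatr5a (1.68) and Ehd4 (1.45) were the other 3 on this side. The uridine phosphorylase gene Upp1 (-3.78), the aryl hydrocarbon receptor Ahr (-1.36) and 1600014C10Rik (-1.37) completed the 9 on the other.

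**Figure D5:**
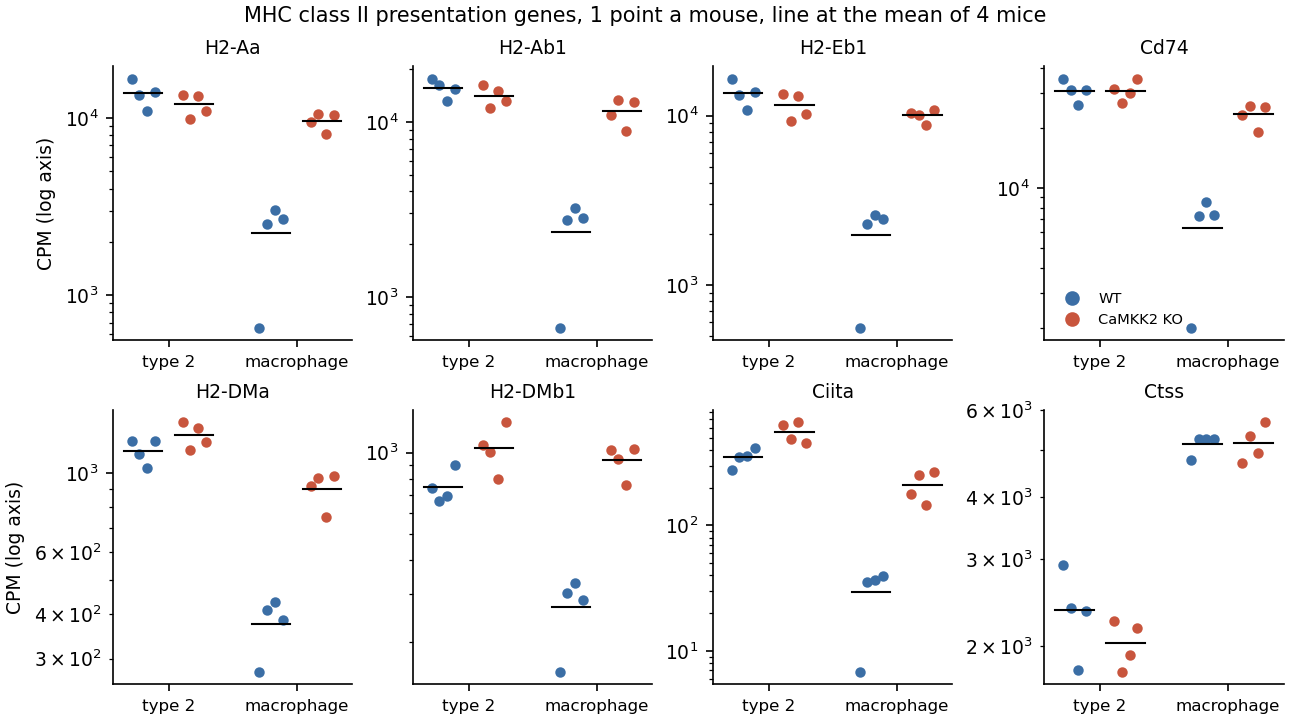
Levels of MHC class II genes in type 2 cells and macrophages of each mouse, 1 panel per gene with its own log axis in CPM. Points are mice. For H2-Eb1 type 2 cells of both genotypes lie between 9302 and 16546 CPM, whereas WT macrophages lie between 556 and 2585 CPM and CaMKK2 KO macrophages between 8841 and 10739 CPM.

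Compared in the same way with type 1 and mature cells together, no gene of 4743 (0.0%) had a genotype effect that differed with edgeR, 241 had an unadjusted p under 0.05, DESeq2 called 2 and edgeR with TMM scaling 1. The lowest adjusted p was that of Gatm, which rose in type 2 cells (log2 1.85) and had a log2 fold change of 0.20 in the other dendritic cells (interaction 1.67, SE 0.24, edgeR adjusted p = 0.0585).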

How the data were processed

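The authors deposited raw UMI counts per gene and barcode for the WT and CaMKK2 KO channels, with hashtag counts as further features. The submitters' processing notes name bcl2fastq 2.20, Cell Ranger 4.0.0, STAR 2.7.5c and mm10. Nothing had been normalized. Each barcode was assigned to a mouse by its hashtag counts (Seurat 5.3.0, function HTODemux, quantile 0.99), and doublets (667 WT, 508 CaMKK2 KO) and negatives (48, 67) were left out. Scrublet doublets were kept and removed as an alternative (24 of the 264 cells).

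UMIs were summed per mouse and tested with glmQLFTest in edgeR 4.0.16 (R 4.3.3), with total UMIs as library size, for genes with at least 100 UMIs over the 8 mice. The SE is the log2 fold change divided by the square root of the F statistic. The interaction model had mouse, class and class by genotype. Shares were compared with two-sided exact permutation tests. The mouse is the replicate. Ratios between cell classes had 10 CPM added to each level. Shared 31-base stretches were counted on the sense strand of GENCODE M21 transcripts, where 31107 of 31253 gene identifiers matched. On simulated counts the type 2 comparison (5297 genes) recovered 92% of 4-fold and 43% of 2-fold changes with 5.59% of calls false, and the macrophage interaction (5104 genes) 87% and 30% with 10.69% false.

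Genes were named by a rule: Camkk2, the gate and marker genes, up to 12 called genes in each direction whose mice did not overlap (names starting with Gm or ending in Rik only counted), up to 4 examples per list, the 12 highest and lowest ratios against other dendritic cells, and the 6 interaction genes with the lowest p in each direction. The text prints a selection of these, and a few genes that the rule or the lists named are not reported here. Other named genes were chosen after their values were seen: genes set side by side in Cd209a-led and Mgl2-led cells, further list members, and those called in Mgl2-led cells only. The members and lists were chosen with earlier results of these data known. Alternatives were TMM, DESeq2 1.42.0, limma 3.58.1 on mean CPM, other UMI minimums, gates and cell filters, and leaving out each mouse.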

Additional observations from a re-analysis of the deposited data

Results flagged for a closer look

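In 80 groups of 4 mice tested for a value far from the other 3, 3 stood out, where chance gives about 1 in 20. Camkk2 was at 10.85 CPM in type 2 cells of CaMKK2 KO mouse 4 and at 22.0 to 23.59 in the other CaMKK2 KO mice. AA467197 was at 371.6 CPM in CaMKK2 KO mouse 1 and at 227.8 to 243.9 in the others. Upp1 was at 84.15 CPM in WT mouse 3 and at 0 to 12.49 in the others.

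The 13 genes whose genotype effect differed between type 2 cells and macrophages by the interaction test had these differences in log2 fold change. It was 2.57 for Wls, 1.76 for Ifi211, 1.68 for Heatr5a and 1.45 for Ehd4. It was -3.78 for Upp1, -2.76 for H2-Eb1, -2.60 for H2-Ab1, -2.48 for H2-Aa, -2.24 for Ciita, -1.39 for H2-DMb1, -1.37 for 1600014C10Rik, -1.36 for Ahr and -1.12 for H2-DMa. Wls and Ifi211 were called in all 8 fits that left out 1 mouse, H2-DMb1 in 5, H2-Eb1, H2-Ab1 and H2-Aa in 3 each, and Ciita in 2.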

How the results depend on the processing

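The 24 genes called between genotypes became 51 with DESeq2, 11 with limma, 188 with no filter on low counts, 15 with a gate sum of 10, 38 in Mgl2-led and 6 in Cd209a-led cells. The 24 were all among the 51 and the 188, and 10 of them among the 11. With 1 mouse left out the count ran from 14 (without WT mouse 2 or WT mouse 3) to 87 (without CaMKK2 KO mouse 3). Over these alternatives no called gene reversed, 377 of 476 gene values kept their side of the threshold and 99 did not. Spint1 and Ifi202b passed in 21 of 21 alternatives, Ero1lb in 6 of 18 and Oser1 in 6 of 19. The 13 interaction genes against macrophages became 29 with DESeq2, and 2 to 25 with 1 mouse left out: 3 without CaMKK2 KO mouse 1, 4 without CaMKK2 KO mouse 2, 25 without CaMKK2 KO mouse 3, 6 without CaMKK2 KO mouse 4 or WT mouse 2, and 2 without WT mouse 4. Against other dendritic cells the count of 0 became 1 with TMM, 2 with DESeq2 and 0 without any 1 mouse. The cause of these changes was not tested. The share of immune cells differed by -2.12 to -1.53 percentage points with 1 mouse left out (exact permutation p 0.0571, the smallest that 3 against 4 allows) and by -3.63 to -0.881 under the other settings (p 0.0286 to 0.171), and the share of dendritic cells by -27.2 to -14.2 (p 0.0571 to 0.114) and by -22.4 to -19.1 (p 0.0571 to 0.114). Depth limits Camkk2 (134 UMIs) and all values of CaMKK2 KO mouse 4. No paired analysis was possible because the hashtag numbers name mice within a channel and pair none across genotypes.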

Other observations

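UMIs of the proliferation marker Mki67 were read in part of the type 2 cells. After thinning to 5000 UMIs, 9.47% of type 2 cells had an Mki67 UMI (17.05% unthinned), 11.6% of Mgl2-led and 4.94% of Cd209a-led cells. The share was 12.7% in type 1 cells, 6.54% in mature cells and 12.4% in macrophages. It was 9.93% in NK cells, 5.69% in B cells and 21.8% in T cells. The part of free Mki67 RNA in these shares was not tested. In WT and CaMKK2 KO type 2 cells the shares were 8.38% and 11.8%. These are shares of cells pooled over mice, given without a test. Camkk2 was at 53.4 CPM in Cd209a-led and 16.0 CPM in Mgl2-led cells and higher in Cd209a-led cells in 6 of 7 mice.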
